A study of Mus musculus with 5 samples.

Results

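The genes described here build the lysosome and its proton pump, the vacuolar ATPase (V-ATPase). They were chosen by symbol: every row beginning Atp6v0 or Atp6v1, which gave 23 rows, and 23 named genes of lysosomal hydrolases, their activators and carriers, membrane proteins and transcriptional regulators. This made 46 of the 19726 gene symbols listed for each library. By role they comprise 23 pump rows, 9 hydrolases, 3 lumenal activators and carriers, 8 membrane proteins and 3 regulators. The mice were C57/Bl6j wild types, 7 weeks old, and their CD4+ T cells were taken either from the spleen (replicates 1, 2 and 3) or from MC38 tumors (replicates 2 and 3). MC38 is a colon carcinoma line of the same mouse strain that is grown as a graft. Total RNA of 300000 cells was depleted of ribosomal RNA and sequenced from both ends as strand-specific libraries. The sources used here do not give how the cells were purified or whether replicates are separate mice. The p-values therefore rest only on the spread between these libraries, mostly that of genes of like level, which may be technical.

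Lysosomes are acidic compartments in which hydrolases break down proteins, glycans and lipids delivered by endocytosis, phagocytosis and autophagy. The V-ATPase keeps them acidic: its cytosolic V1 sector splits ATP and drives its membrane V0 sector, which moves protons into the lumen. TFEB, TFE3 and MITF are related transcription factors that bind an E-box motif, called the CLEAR element, near many lysosomal genes. Resting T cells have little cytoplasm and few lysosomes, whereas macrophages are rich in them.

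Levels are in TPM, a relative transcript abundance corrected for length, of which each file lists only a part. The listed values summed to 268987 to 359532 TPM in the spleen libraries and to 569309 and 596116 TPM in tumor, so a comparison of deposited TPM also carries this difference in the listed share. Each change is therefore given for the deposited TPM and, where it matters, after scaling all libraries to equal totals of the listed genes, which moved the median log2 change of all tested genes from 0.23 to -0.54. As a background level, the 95th percentile of 1134 olfactory receptor genes lay between 10.6 and 16.2 TPM in the spleen libraries and at 7.59 and 10.7 TPM in the tumor libraries. All 11 genes on a list of T cell identity exceeded this level in every spleen library and 9 of them in both tumor libraries. All 11 fell, their sum being 925, 1213 and 1011 TPM in spleen and 304 and 238 TPM in tumor. All 15 genes on a list of macrophages and monocytes rose: their sum was 29.9, 41.7 and 38.7 TPM in spleen and 6713 and 7175 TPM in tumor, with none at 0 in any library. Of these 15 genes 10 passed the filter on low values described below only through tumor, so their rise was a condition of being tested. The highest of them was Ccr2 in spleen, at 9.50, 19.2 and 15.9 TPM, and Ly6c2 in tumor, at 2284 and 2235 TPM. Of all tested genes 40.9% rose and 18.1% fell, and with equal totals 21.0% rose and 51.3% fell. The counts of marker genes were not tested against these shares. Other cell types were marked less clearly, and genes that could be tested only because of their tumor level are counted apart. Of 6 tested neutrophil genes 3 rose, all 3 of that kind, and 1, Cxcr2, fell, or 3 and 2 with equal totals. Of 7 tested dendritic cell genes 3 rose, 2 of them of that kind, and 1, Ccr7, fell, or 3 and 3 with equal totals. Of 5 tested osteoclast genes 4 rose, 2 of them of that kind, and 1, Nfatc1, fell, and with equal totals 1 rose and 1 fell. Both endothelial rises among 3 tested genes were of that kind, and with equal totals 1 rose and 1 fell. Of 4 tested NK cell genes 1 rose and 2 fell, and of 4 tested B cell genes 1 rose and 1 fell, or none and 2 with equal totals. Klrb1c among the NK cell falls and Cd79a, the B cell fall in deposited TPM, averaged 0.530 and 0.389 TPM in tumor. Both passed the filter only through spleen, so their fall was a condition of being tested. None of 4 tested fibroblast genes was called by limma, 1 had an unadjusted p under 0.05, and 2 fell with equal totals, and no epithelial gene on the list could be tested. In bulk RNA, fewer cells of a type and less RNA per cell cannot be told apart, and the part of macrophage RNA in the lysosomal results below was not tested.

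Most of the lysosomal genes were higher in the tumor libraries, and a few pump isoforms were not. The largest fold in mean deposited TPM was 85.5, for Grn, which lay under the background level in every spleen library. Changes were tested with limma on log2(TPM + 1) over the 12979 genes whose mean reached 1 TPM, and called at a Benjamini-Hochberg adjusted p below 0.05. Of the 46 genes 41 were tested, 35 rose, 2 fell and 4 were not called. Over all tested genes 40.9% rose and 18.1% fell. With equal totals 32 of the 41 rose and 5 fell, where 21.0% of all tested genes rose and 51.3% fell. The median log2 change was 2.26 for the tested members and 0.23 for all tested genes, and 1.35 and -0.54 with equal totals. Among the 41 tested members both tumor libraries lay above all spleen libraries for 38 and below them for 2, where the shares over all tested genes were 46.6% and 23.8%. Over all 46 rows, untested ones included, these counts were 40 and 3, where all 19726 listed genes gave 6535 and 4924. Most members were at or under the background level in spleen: 25 lay under the olfactory percentile in all 3 spleen libraries and 10 lay above it in all of them, while 36 lay above it in both tumor libraries. Cd63 passed the filter on low values only through tumor, and Atp6v0a4 only through spleen.

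**Figure D1:**
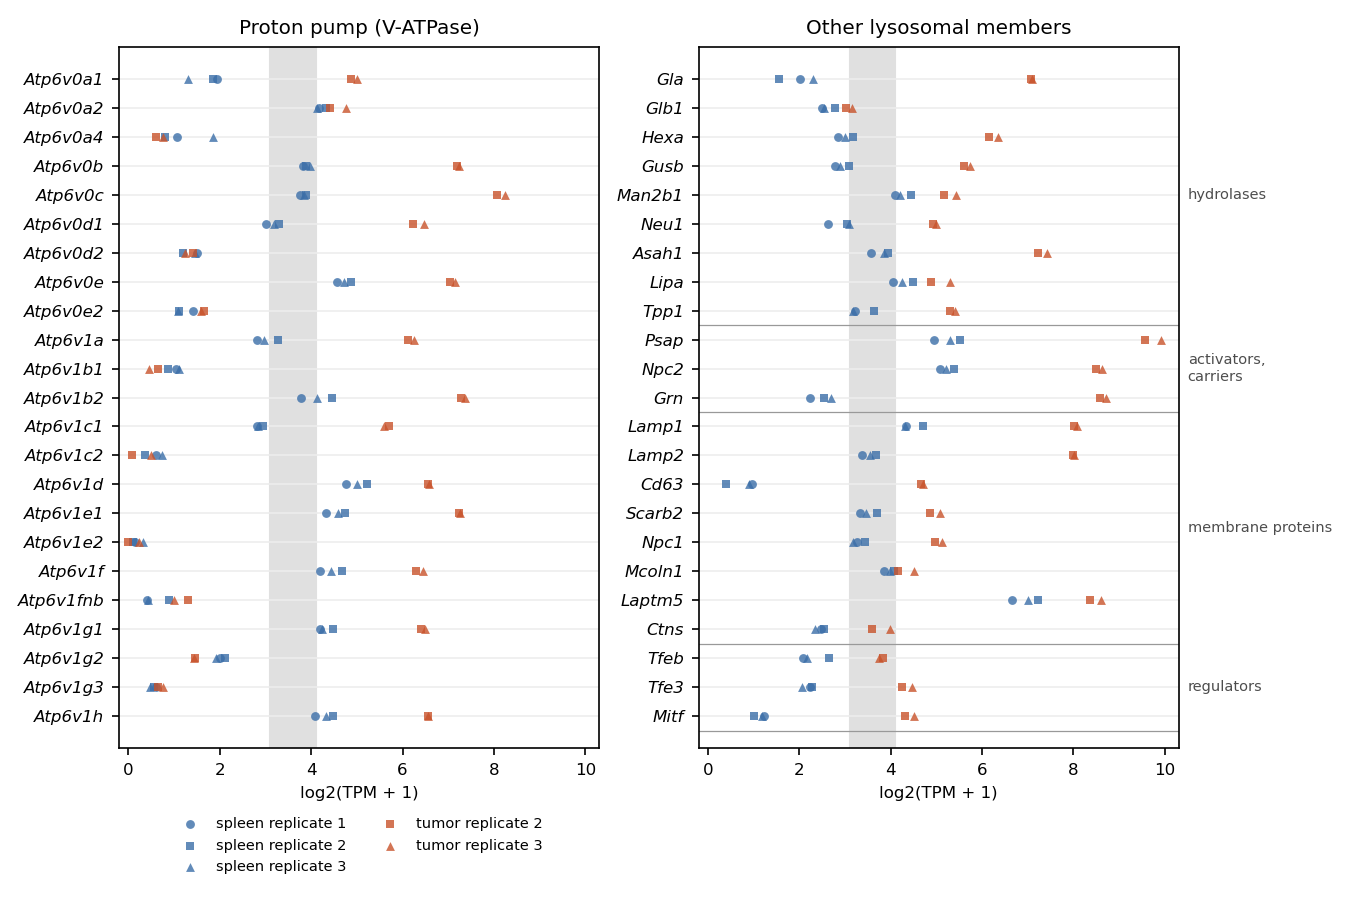
Level of each of the 46 genes in each library, as log2(TPM + 1) on the horizontal axis, spleen in blue and tumor in orange, with the proton pump on the left and the other roles on the right. The grey band spans the 95th percentiles of the olfactory receptor genes (7.59 to 16.2 TPM). Tumor points lie to the right of all spleen points for 40 genes, as they would for 6535 of all 19726 listed genes. The pump isoforms near the left edge stay below the band in both tissues.

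The proton pump was higher in tumor through its widely expressed subunits. Of 23 rows 18 were tested, 13 rose and 2 fell, and with equal totals 13 rose and 4 fell. The median log2 change was 2.32, and 1.94 over all 23 rows without a filter. The 13 that rose comprised Atp6v0a1, Atp6v0b, Atp6v0c, Atp6v0d1 and Atp6v0e of the membrane sector and Atp6v1a, Atp6v1b2, Atp6v1c1, Atp6v1d, Atp6v1e1, Atp6v1f, Atp6v1g1 and Atp6v1h of the cytosolic sector. Their log2 changes ranged from 1.58 (Atp6v1d) to 4.32 (Atp6v0c), and with equal totals from 0.66 to 3.41 for the same genes. The summed TPM of the 23 rows was 205.8, 261 and 232 in spleen replicates 1, 2 and 3 and 1442 and 1545 in tumor replicates 2 and 3, 6.42-fold higher in tumor and 3.37-fold with equal totals.

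Atp6v0c encodes the proteolipid of the rotating ring that carries the protons. It stood at 12.6, 13.8 and 13.3 TPM in spleen and 266 and 302 TPM in tumor (chromosome 17, 24163866 to 24169702, GRCm38; log2 change 4.32 ± 0.21 SE, limma adjusted p = 5.6e-24). The spleen values lay close together, and no other pump gene was as high in either tumor library. Its share of the pump's summed TPM went from 5.28% to 6.11% in spleen to 18.4% and 19.5% in tumor. Atp6v0b, which encodes the related c'' proteolipid, stood at 13.1, 13.8 and 14.7 TPM in spleen and 145 and 149 TPM in tumor (log2 change 3.31 ± 0.21, limma adjusted p = 1.7e-19).

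Among cytosolic subunits, Atp6v1a, the catalytic A subunit where ATP is split, stood at 6.0, 8.62 and 6.81 TPM in spleen and 68.8 and 74.5 TPM in tumor (log2 change 3.17 ± 0.21, limma adjusted p = 2.0e-18). Atp6v1b2, the B subunit that alternates with A in the head of the pump, stood at 12.6, 20.9 and 16.5 TPM in spleen and 153 and 163 TPM in tumor. For both genes the tissues were far apart relative to the spread among spleen libraries. Atp6v1d, part of the central stalk, moved least among the subunits that rose, from 25.9, 36.4 and 31.2 TPM to 93.7 and 94.5 TPM, and its share of the pump's sum went from 12.6% to 14.0% in spleen to 6.498% and 6.12% in tumor. Summed over the sector, with Tcirg1 counted in V0 and Atp6v1fnb left out, V0 genes stood at 94.7 to 102 TPM in spleen and 861 and 959 TPM in tumor, and V1 genes at 126 to 171 and 773 and 804 TPM. The ratio of V0 to V1, which no scaling of libraries alters, was 0.753, 0.599 and 0.687 in spleen and 1.11 and 1.19 in tumor, without overlap.

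**Figure D2:**
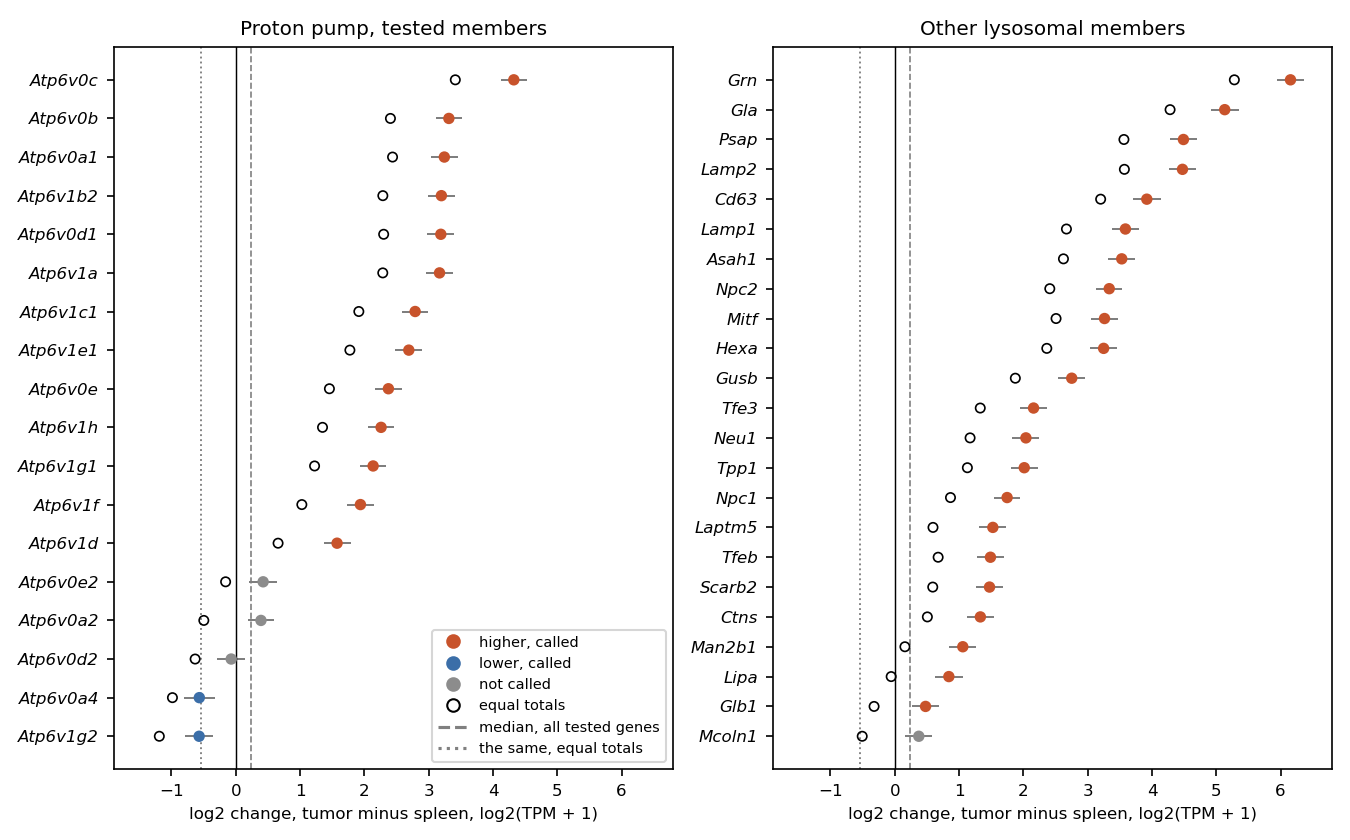
Change of each tested member between tissues (horizontal axis, log2 change in TPM + 1, tumor minus spleen; filled points with bars of 1 standard error), coloured by its limma call, with the value after equal totals as open circles. Grn, at 6.15, moved most; Atp6v0a4 and Atp6v1g2 are on the left of 0, and the dashed and dotted lines give the medians of all tested genes, 0.23 and -0.54.

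Several pump subunits are encoded by alternative isoforms, of which some are used widely and others in kidney, epididymis, brain or osteoclasts. The tissues differed in the shares of the isoforms of the a subunit, the membrane arm that holds the pump at a given organelle. The a2 gene Atp6v0a2, known from Golgi and early endosomes, stood at 16.9, 18.9 and 16.4 TPM in spleen and 20.4 and 26.1 TPM in tumor, with no call (log2 change 0.39 ± 0.21 SE, adjusted p = 0.101 in limma). Its tumor values lay above all spleen values, but the change was -0.50 with equal totals (adjusted p = 0.0221), and without spleen replicate 2 a rise was called (adjusted p = 0.0278). Tcirg1, the gene of the a3 isoform known from lysosomes of macrophages and the border of osteoclasts, is not among the 46 by symbol. It stood at 15, 12.8 and 15.8 TPM in spleen and 193 and 219 TPM in tumor (log2 change 3.74 ± 0.21, limma adjusted p = 2.4e-21). In spleen a2 and a3 were thus close in replicates 1 and 3. The background level there was 16.2, 10.6 and 13.8 TPM, which Atp6v0a2 exceeded in 3 libraries and Tcirg1 in 2. Atp6v0a1, the a1 isoform, best known from neurons, stood at 2.81, 2.59 and 1.46 TPM in spleen, under the background level, and 28.3 and 31.0 TPM in tumor. As shares of the summed TPM of the 4 a isoforms, a2 made up 47.2%, 53.9% and 45.2% in spleen and 8.42% and 9.46% in tumor. The a3 share was 41.9%, 36.6% and 43.5% in spleen and 79.7% and 79.1% in tumor. Neither share overlapped between tissues. An exact two-sided permutation test that doubles the smaller tail gave p = 0.2 for each. This is the smallest that this form of the test allows for 3 against 2 libraries, and it follows from the lack of overlap. Shares within a library do not depend on the scaling of libraries.

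**Figure D3:**
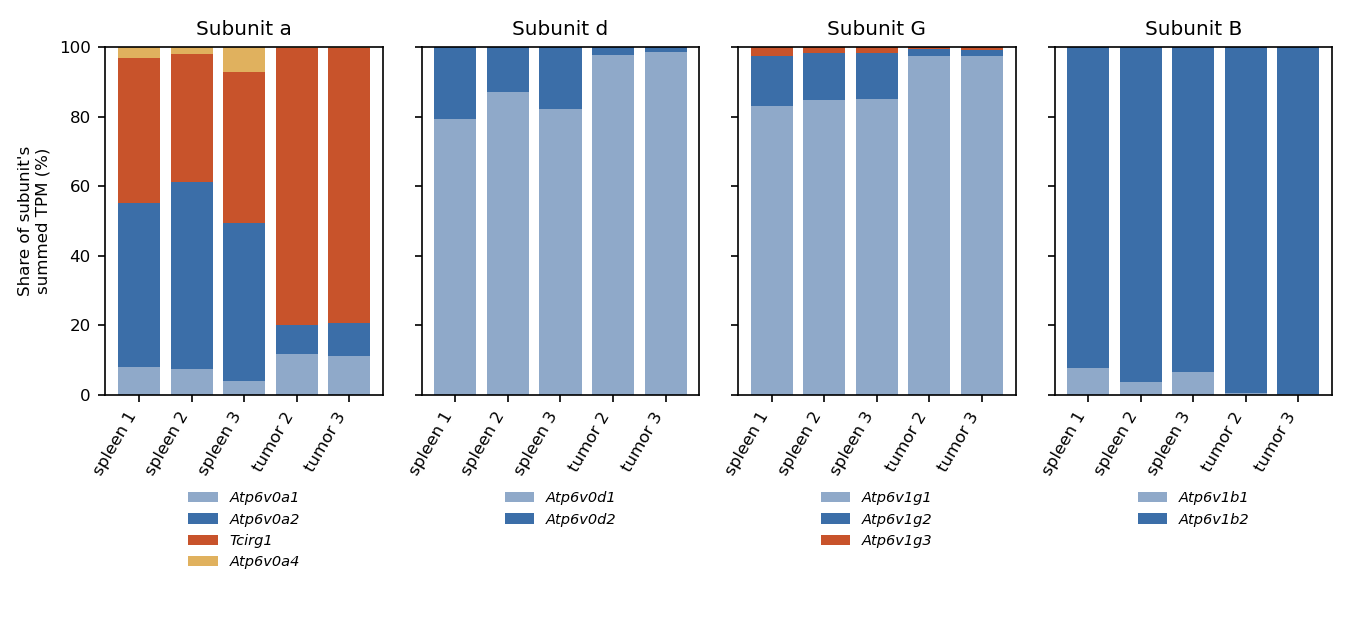
Isoforms of the a, d, G and B subunits of the proton pump in each library, as stacked shares in percent of the summed TPM of the subunit. The a3 gene Tcirg1 takes 36.6% to 43.5% in spleen and 79.1% and 79.7% in tumor, and in the other 3 subunits the widely used isoform (Atp6v0d1, Atp6v1g1, Atp6v1b2) takes a larger share in tumor.

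Besides Atp6v0a2, the pump rows that did not rise were at low levels in both tissues, and most of them are isoforms known from restricted tissues. Atp6v0d2, the d isoform of osteoclasts and some macrophages, stood at 1.85, 1.30 and 1.76 TPM in spleen and 1.65 and 1.36 TPM in tumor, with overlap and no call (log2 change -0.07 ± 0.22, limma adjusted p = 0.795; -0.63 and adjusted p = 0.0458 with equal totals). The widely used Atp6v0d1 went from 7.04, 8.83 and 8.05 TPM to 74.3 and 87.4 TPM, and took 79.2% to 87.1% of the d subunit's TPM in spleen and 97.8% and 98.5% in tumor. Atp6v1g2, a G isoform of neurons, stood at 3.04, 3.35 and 2.75 TPM in spleen and 1.74 and 1.70 TPM in tumor (log2 change -0.57 ± 0.21, limma adjusted p = 0.0192). Atp6v0a4, the a4 isoform of kidney, stood at 1.09, 0.747 and 2.63 TPM in spleen and 0.517 and 0.685 TPM in tumor (log2 change -0.57 ± 0.25, limma adjusted p = 0.0437). These are the 2 members that fell, and both lay under the background level in every library. Atp6v0a4 averaged 0.601 TPM in tumor and passed the filter only through spleen, so its fall was a condition of being tested. The fall of Atp6v1g2 was no longer called without spleen replicate 3, tumor replicate 2 or tumor replicate 3 (limma adjusted p = 0.05003, 0.0819 and 0.08505). That of Atp6v0a4 was lost without tumor replicate 2 or 3 (adjusted p = 0.159 and 0.0541), with upper quartiles (0.0583), without a filter (0.151) and with a pseudocount of 0.1 or 10 (0.0616 and 0.0941). Its highest value was that of spleen replicate 3, without which it missed the filter and tumor stood at 0.653 of the spleen mean in place of 0.403. With T cell identity genes as the scale the log2 changes of Atp6v1g2 and Atp6v0a4 were 0.92 and 0.44.

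Atp6v0e2, an isoform of the small e subunit, stood at 1.66, 1.14 and 1.12 TPM in spleen and 2.13 and 2.03 TPM in tumor and was not called (limma adjusted p = 0.0912), and with equal totals its log2 change was -0.16. The main e gene, Atp6v0e, rose from 22.7, 28.2 and 25.4 TPM to 130 and 141 TPM. The rows not tested were Atp6v1b1, Atp6v1c2, Atp6v1e2, Atp6v1g3 and Atp6v1fnb. Atp6v1b1, the B isoform of acid-secreting kidney cells, stood at 1.06, 0.811 and 1.16 TPM in spleen and 0.574 and 0.368 TPM in tumor. Atp6v1c2 stood at 0.514, 0.284 and 0.654 TPM in spleen and 0.0561 and 0.409 TPM in tumor, and Atp6v1e2, an isoform of testis, at 0.246 TPM or less in each library, being listed at 0 in tumor replicate 2. Atp6v1g3, a G isoform of kidney, stood at 0.392 to 0.514 TPM in spleen and 0.573 and 0.691 TPM in tumor. The widely used isoforms of these subunits all rose. Atp6v1c1 went from 5.99, 6.72 and 6.17 TPM in spleen to 51.3 and 47.5 TPM in tumor. Atp6v1e1 went from 19.1, 25.9 and 22.9 TPM to 149 and 152 TPM. Atp6v1g1 went from 17.4, 21.2 and 17.9 TPM to 83.5 and 88.4 TPM. Atp6v1fnb matches the rule by its name, which marks it as a neighbour of Atp6v1f, and stood at 0.323, 0.852 and 0.348 TPM in spleen and 1.49 and 0.996 TPM in tumor.

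All 9 hydrolases rose, with log2 changes from 0.48 to 5.13 and a median of 2.04. With equal totals 6 rose and none fell. Their summed TPM was 75.9, 98.7 and 86.6 in spleen and 540 and 601 in tumor, 6.55-fold higher, and 3.45-fold with equal totals. Gla, alpha-galactosidase A, which removes terminal galactose from glycolipids, moved most. It stood at 3.05, 1.93 and 3.92 TPM in spleen and 134 and 136 TPM in tumor (chromosome X, 134588149 to 134601125; log2 change 5.13 ± 0.22, limma adjusted p = 4.5e-26). Its spleen values lay under the background level, and its share of the summed hydrolase TPM went from 1.96% to 4.53% to 22.6% and 24.8%. Asah1, acid ceramidase, had the highest level of the hydrolases in tumor, at 148 and 171 TPM, from 10.9, 14.3 and 13.6 TPM in spleen (log2 change 3.53 ± 0.21, limma adjusted p = 2.9e-20). Hexa, the alpha chain of beta-hexosaminidase, which degrades gangliosides, rose from 6.21, 8.08 and 6.98 TPM to 70.7 and 80.8 TPM. Each of these 3 genes was separated between tissues by more than the whole spread within either. Gusb, beta-glucuronidase, Neu1, a sialidase, and Tpp1, a tripeptidyl peptidase, rose as well, with log2 changes of 2.75, 2.04 and 2.01.

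The smallest rises were those of 3 other hydrolases. Man2b1, lysosomal alpha-mannosidase, was the hydrolase with the second highest mean in spleen, at 16.1, 20.8 and 17.4 TPM, and reached 35.1 and 42.4 TPM in tumor (log2 change 1.06 ± 0.21, limma adjusted p = 2.4e-05). Lipa, lysosomal acid lipase, which frees cholesterol from its esters, had the highest mean in spleen, at 15.5, 21.4 and 18 TPM, and reached 28.7 and 38.6 TPM (log2 change 0.84 ± 0.21, limma adjusted p = 0.00068). Glb1, lysosomal beta-galactosidase, went from 4.65, 5.90 and 4.84 TPM to 7.15 and 7.91 TPM (log2 change 0.48 ± 0.21, limma adjusted p = 0.0428), under the background level in every library. None of the 3 was called with equal totals, where their log2 changes were 0.16, -0.06 and -0.32. The call of Glb1 was also lost without spleen replicate 1 or 3 or tumor replicate 2 or 3 (adjusted p = 0.116, 0.158, 0.110 and 0.217), on median ratios (0.116) and without a filter (0.0795). That of Lipa was lost with upper quartiles (adjusted p = 0.153) and without tumor replicate 3 (0.0748), and that of Man2b1 without the top 20 genes in the totals (0.509). Man2b1 made up 20.1% to 21.2% of the summed hydrolase TPM in spleen and 6.49% and 7.05% in tumor, and Lipa 20.5% to 21.6% and 5.31% and 6.42%.

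All 3 lumenal activators and carriers rose, also with equal totals, and their median log2 change was 4.49. Grn encodes progranulin, a precursor of granulin peptides with roles in lysosome function and inflammation. It stood at 3.72, 4.84 and 5.53 TPM in spleen and 385 and 418 TPM in tumor (chromosome 11, 102430315 to 102437048; log2 change 6.15 ± 0.21, limma adjusted p = 8.7e-30, and 5.28 with equal totals). It ranked 30 of the 46 by mean TPM in spleen, where all its values lay under the background level, and 2 in tumor. Psap encodes prosaposin, the precursor of the saposins that help hydrolases reach sphingolipids, and was the most abundant of the 46 in tumor, at 760 and 962 TPM from 29.8, 44.6 and 38.4 TPM (log2 change 4.49 ± 0.21, limma adjusted p = 4.0e-24). Npc2, which hands cholesterol to NPC1 in the lumen, rose from 32.7, 40.8 and 36.0 TPM to 361 and 391 TPM (log2 change 3.34 ± 0.21, limma adjusted p = 1.4e-19). Together the 3 genes summed to 66.3 to 90.2 TPM in spleen and 1506 and 1772 TPM in tumor, 20.8-fold higher and 10.98-fold with equal totals.

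Of the 8 membrane proteins 7 rose and 1 had no call, and their median log2 change was 1.64. With equal totals 7 rose and 1 fell. Lamp1 and Lamp2 encode the main glycoproteins that line the lysosomal membrane. Lamp2 (chromosome X, 38401357 to 38456454) stood at 9.36, 11.9 and 10.7 TPM in spleen and 254 and 259 TPM in tumor (log2 change 4.47 ± 0.21, limma adjusted p = 1.8e-24), and Lamp1 at 19.3, 25.3 and 19.0 TPM and 259 and 269 TPM (log2 change 3.59 ± 0.21, limma adjusted p = 1.5e-20). Lamp2 was below Lamp1 in every library, and the ratio of the pair was closer to equal in tumor. Cd63, a tetraspanin of late endosomes and secretory granules, was under 1 TPM in each spleen library (0.946, 0.324 and 0.879) and at 24.2 and 25.0 TPM in tumor (log2 change 3.92 ± 0.21, limma adjusted p = 1.3e-21). It passed the filter on low values only through tumor, so its rise, 1 of the 7, was a condition of being tested.

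Other membrane proteins moved less. Npc1, the cholesterol exporter that receives its cargo from NPC2, Scarb2, the sorting receptor of glucocerebrosidase, and Ctns, the cystine exporter, rose by 1.75, 1.47 and 1.33 on the log2 scale. Ctns stood at 4.55, 4.81 and 4.08 TPM in spleen and 11 and 14.8 TPM in tumor (limma adjusted p = 3.0e-07, and 0.0395 with equal totals). Laptm5, a membrane protein of blood cells that lowers surface T cell receptor levels, was the most abundant of the 46 in spleen, at 100, 149 and 127 TPM, and stood at 328 and 390 TPM in tumor (log2 change 1.53 ± 0.21, limma adjusted p = 1.6e-08). It took 60.5% to 65.3% of the summed TPM of the 8 membrane proteins in spleen and 34.5% and 37.2% in tumor. Mcoln1, the calcium channel TRPML1 that acts upstream of TFEB, had no call, at 13.5, 15.7 and 14.8 TPM in spleen and 17.0 and 21.8 TPM in tumor (log2 change 0.37 ± 0.21 SE, adjusted p = 0.118 in limma). Its tumor values were above all spleen values, but its log2 change was -0.51 with equal totals (adjusted p = 0.0208), and a rise was called without spleen replicate 2 (adjusted p = 0.0402).

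The 3 regulators rose, also with equal totals, each from values under the background level in spleen. Mitf, known as a master regulator of melanocytes and also used by macrophages and osteoclasts, stood at 1.36, 1.01 and 1.29 TPM in spleen and 18.8 and 21.8 TPM in tumor (chromosome 6, 97807052 to 98021349; log2 change 3.26 ± 0.21, limma adjusted p = 4.5e-19). Tfe3 stood at 3.74, 3.89 and 3.19 TPM in spleen and 17.9 and 21.2 TPM in tumor (chromosome X, 7762560 to 7775202; log2 change 2.16 ± 0.21, limma adjusted p = 6.4e-13). Tfeb stood at 3.23, 5.24 and 3.53 TPM in spleen and 13.3 and 12.4 TPM in tumor (chromosome 17, 47737030 to 47792419; log2 change 1.49 ± 0.21, limma adjusted p = 3.8e-08). Mitf had the lowest level of the 3 in every spleen library and made up 9.998% to 16.3% of their sum there, and 37.6% and 39.3% in tumor. Tfeb made up 38.8% to 51.7% in spleen and 22.3% and 26.6% in tumor, where it was the lowest of the 3. Tfec, the fourth member of this family, which is mostly found in macrophages, rose from 1.51, 1.11 and 0.798 TPM to 12.3 and 15.4 TPM (log2 change 2.80 ± 0.21, limma adjusted p = 3.6e-16). These factors are also controlled by where the protein lies in the cell, which RNA does not show.

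The start regions of the members were searched for the core of the CLEAR element, since these factors are known to bind it. In RefSeq promoter windows of 300 bases (250 before and 50 after a start, GRCm38.p6), TCACGTG was looked for on both strands, where it reads CACGTGA. Of the 46 genes 38 had a window and 8 of these, 21.1%, held the motif, compared with 4.29% of all 27025 symbols and 3.77% of all 32851 windows. Where the motif overlaps its own reverse complement, as in TCACGTGA, it was counted once. A longer palindrome that contains this motif, TCACGTGA with a G before it and a C after it, was searched for in the same windows. It was found in 0 of the 38 members and in 0.37% of all symbols. It is so rare that 38 genes cannot show whether the members differ in it, so the higher share holds for the shorter motif only. The element is already known near many lysosomal genes, so that share describes the choice of genes and uses no value of these libraries. A match is a run of letters and not a measured binding site. The stretches below show the genes with most copies or with contrasting changes, with TCACGTG or CACGTGA in capitals. They run 5′ to 3′ on the strand of the gene and end before the RefSeq start of the window. In GENCODE the gene Atp6v1a reaches to base 44139705 of chromosome 16, so its stretch lies within that gene. Lamp1 is at chr8:13159061-13159160 (+), Atp6v0b at chr4:117887334-117887409 (-), Atp6v1a at chr16:44139350-44139429 (-), Gla at chrX:134601215-134601244 and chrX:134601182-134601211 (-), Glb1 at chr9:114400998-114401075 (+) and Mcoln1 at chr8:3500419-3500456 (+).
Lamp1: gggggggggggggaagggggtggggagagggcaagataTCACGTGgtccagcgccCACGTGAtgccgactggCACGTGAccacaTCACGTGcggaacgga
Atp6v0b: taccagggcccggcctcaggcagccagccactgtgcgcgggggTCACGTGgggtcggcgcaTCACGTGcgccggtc
Atp6v1a: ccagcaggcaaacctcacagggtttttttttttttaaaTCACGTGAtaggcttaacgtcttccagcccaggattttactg
Gla, first copy: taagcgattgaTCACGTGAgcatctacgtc
Gla, second copy: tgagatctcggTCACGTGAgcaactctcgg
Glb1: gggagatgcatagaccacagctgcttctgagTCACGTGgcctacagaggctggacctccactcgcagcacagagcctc
Mcoln1: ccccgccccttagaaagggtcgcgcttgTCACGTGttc

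Lamp1 held 4 copies, the first base of CACGTG lying 61, 45, 28 and 15 bases before the start, and Atp6v0b, Gla and Mcoln1 held 2 copies each, of which the stretch of Mcoln1 shows 1. In Gla they lay 227 and 194 bases before the start and in Atp6v0b 36 and 18. The other 2 genes with the motif were Atp6v0d1 and Atp6v0e, where it overlapped or followed the start. Of the 8 genes 7 rose, with log2 changes from 0.48 (Glb1) to 5.13 (Gla), and Mcoln1 was not called. Of all 41 tested members 35 rose, so this count is near that of the members as a whole. With equal totals Glb1 was not called (log2 change -0.32) and Mcoln1 was lower (-0.51). Grn, Psap and Lamp2, which had large changes, are not among the 8 genes with the motif. A gene without a window could not be either, so this says only that no match was found.

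Other genes of the lysosome, from lists of its remaining hydrolases, membrane proteins, pump partners, sorting factors and nutrient sensors, moved in both directions. Over all tested genes 40.9% rose and 18.1% fell, and with equal totals 21.0% rose and 51.3% fell. Of 22 other hydrolases 17 rose and 2 fell, with a median log2 change of 1.33, and with equal totals 11 rose and 5 fell. Sgsh, an enzyme of heparan sulfate breakdown, had the largest fall among them, from 3.54, 5.97 and 3.99 TPM to 2.01 and 2.27 TPM (limma adjusted p = 0.00182). Of 20 other membrane proteins 19 were tested, 13 rose, 2 of which passed the filter only through tumor, and 1 fell, and with equal totals 10 rose and 5 fell. Cd68, a glycoprotein of macrophage lysosomes, rose from 2.06, 1.85 and 1.62 TPM to 379 and 414 TPM, and Mfsd8, a membrane transporter lost in one form of Batten disease, fell from 3.92, 5.69 and 4.02 TPM to 2.17 and 2.54 TPM (limma adjusted p = 0.00385, and 0.0553 without tumor replicate 2). Sgsh and Mfsd8 lay under the background level in all libraries, and with T cell identity genes as the scale their log2 changes were 0.82 and 0.91. All 10 partners and assembly factors of the pump rose, and 5 with equal totals, Tcirg1 having the largest change. Of 10 sorting and maturation genes 9 were tested and 6 rose, or 3 with equal totals, where 2 fell. M6pr, the small mannose 6-phosphate receptor that delivers new hydrolases, led them, from 31.7, 40.0 and 35.6 TPM to 157 and 172 TPM.

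Of 15 nutrient sensing genes, which tether mTORC1 to the lysosome and control TFEB, 11 rose and 1 fell, and 9 and 4 with equal totals. Fnip2, a partner of folliculin in the complex that lets mTORC1 act on TFEB and TFE3, passed the filter only through tumor and moved most, from 0.979, 0.732 and 0.945 TPM in spleen to 122 and 104 TPM in tumor (log2 change 5.91 ± 0.21, limma adjusted p = 1.9e-29). Rragb, one of the Rag GTPases, fell from 2.61, 3.87 and 2.53 TPM to 1.14 and 1.06 TPM (limma adjusted p = 0.00035), under the background level, and with T cell identity genes as the scale its log2 change was 0.45. Mtor itself stood at 5.55, 8.53 and 4.90 TPM in spleen and 6.13 and 8.02 TPM in tumor, with overlap and no call, while with equal totals a fall was called (log2 change -0.64, limma adjusted p = 0.0192). It was named after its values were seen.

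Another scaling moves all genes of a library together, so it shifts the medians of the roles and of all genes nearly alike. It changes which side of 0 a gene lies on and how many genes are called. On median ratios 34 of the 41 members rose and 2 fell, where 37.3% of all tested genes rose and 21.0% fell. The median of all genes was then 0.16, and the pump, hydrolases, activators and carriers, membrane proteins and regulators had medians of 2.23, 1.96, 4.40, 1.55 and 2.08. Scaled by upper quartiles 33 rose and 1 fell, against 27.0% and 42.2% of all genes. Totals computed without the top 20 genes gave 32 rises and 6 falls, against 20.4% and 56.4% of all genes, and role medians of 1.32, 1.10, 3.49, 0.65 and 1.26 beside -0.60 for all genes. With T cell identity genes as the scale 40 rose and none fell, against 94.3% and 0.986% of all genes, so the members' count there is near that of all genes. The role medians were then 4.35, 3.98, 6.55, 3.65 and 3.98 beside 2.03 for all genes. Differences between roles were not tested.

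**Figure D4:**
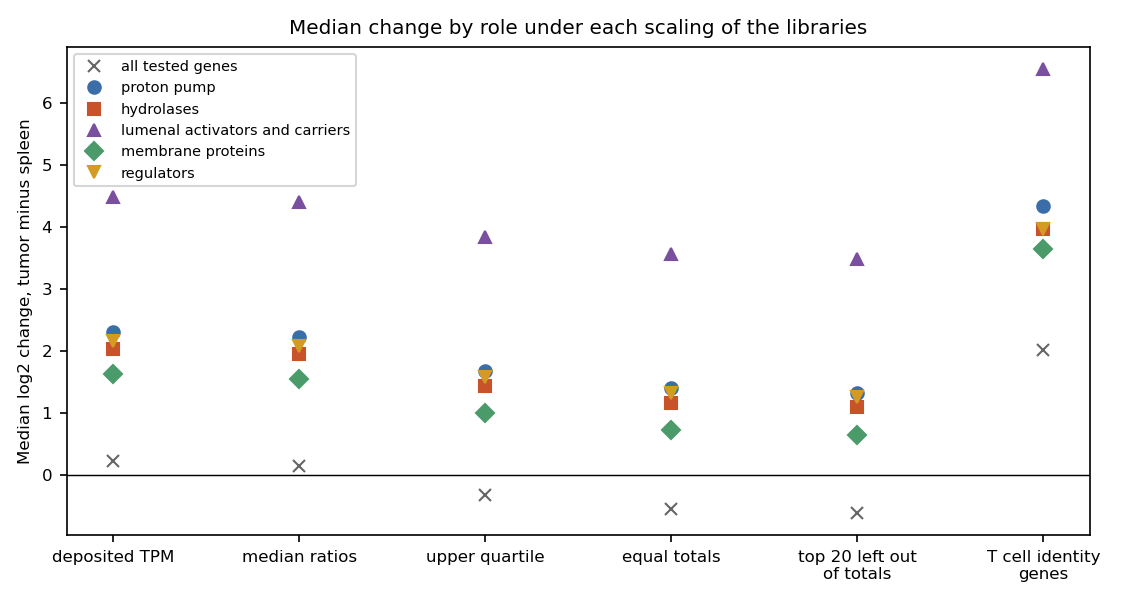
Median log2 change (vertical axis, tumor minus spleen) of the tested members of each role and of all 12979 tested genes, under the deposited TPM and 5 other scalings of the libraries on the horizontal axis. The median of all genes runs from -0.60 to 2.03, and the role medians move up and down with it, since a scaling acts on all genes of a library.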

How the data were processed

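Each of the 5 deposited files gives 1 value per gene symbol. The authors' deposited values are taken as TPM, since they are not whole and sum to less than the total of a full TPM library. Per the submitters' processing notes kallisto, DESeq2 and mm10 were used, in roles and versions that are not stated. Read depth is unknown, so no counting interval is given, and precision rests on 3 spleen and 2 tumor libraries. Of the 19726 genes 12979 averaged 1 TPM or more and were tested on log2(TPM + 1) with limma 3.58.1 (R 4.3.3). The fit had a term for tissue alone, a trend of variance with level, and p-values that were two-sided and adjusted by Benjamini-Hochberg. Residual degrees of freedom were 3 and prior degrees of freedom 44.1, so a gene's error is mostly that of genes of like level. Changes on this scale understate those of low genes, while folds of sums are on TPM itself. The fit was tested on simulated data. Coordinates are from GENCODE M21 (GRCm38) and promoters from RefSeq (GRCm38.p6). Members and gene lists were chosen with earlier results of these data known. Values in every library are given for the regulators, the pump isoforms, the extremes and the most abundant of each role, each member that fell, had no call or was not tested, and the largest rise and fall of each other list, of which 1 is not reported here. Alternatives were 5 other scalings, no filter or a mean of 10 TPM, pseudocounts of 0.1 and 10, an adjusted p under 0.01, a block for the replicate number, and leaving out single libraries.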

Additional observations from a re-analysis of the deposited data

How the results depend on the processing

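Of the 41 tested members 32 kept their call and direction under every alternative that tested them. Over all genes, 5309 higher and 2347 lower became 2724 and 6662 with equal totals, 3503 and 5482 with upper quartiles, 2648 and 7321 without the top 20 genes in the totals, 12233 and 128 on T cell identity genes, and 3492 and 903 with a mean of 10 TPM. At an adjusted p under 0.01, 1552 were lower, and without single libraries 1225 to 2609. The share of calls that were higher was 69.3%, and 29.0%, 38.99%, 26.6% and 99.0% under those 4 scalings. The summed folds with equal totals were 3.37 (pump), 3.45 (hydrolases), 10.98 (activators and carriers), 2.69 (membrane proteins) and 3.14 (regulators).

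The 2 lower pump genes became 4 with equal totals and without the top 20 genes, 1 with upper quartiles, no filter or either pseudocount, and 0 on T cell identity genes, with a mean of 10 TPM or at 0.01. Without single libraries there were 0 to 2, with 0 without spleen replicate 3, tumor replicate 2 or tumor replicate 3. Without the top 20 genes 1 hydrolase was lower, and 1 membrane protein was lower there and with equal totals. Of the other hydrolases 11 were higher with equal totals and without the top 20 genes, and 9 with a mean of 10 TPM. Lower were 5 with equal totals, 4 with upper quartiles, 6 without the top 20 genes, 1 with no filter, either pseudocount or at 0.01, 0 on T cell identity genes and with a mean of 10 TPM, and 1 to 2 without single libraries. Of the other membrane proteins 5, 4 and 6 were lower with equal totals, upper quartiles and without the top 20 genes, 0 on T cell identity genes and with a mean of 10 TPM, and 0 to 1 without single libraries. Of the pump partners 5 were higher with equal totals and without the top 20 genes, and 6 with a mean of 10 TPM. Of the sorting genes 3 were higher with equal totals and without the top 20 genes, while 2, 1 and 3 were lower with equal totals, upper quartiles and without the top 20 genes, and 0 to 1 without single libraries. Of the nutrient sensing genes 4, 2 and 4 were lower under those 3 scalings, and 0 on T cell identity genes and with a mean of 10 TPM.

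Directions turned with scaling for these genes. With equal totals, upper quartiles and without the top 20 genes, the log2 changes were -0.50, -0.22 and -0.57 for Atp6v0a2, -0.32, -0.075 and -0.39 for Glb1, and -0.51, -0.23 and -0.58 for Mcoln1. With equal totals and without the top 20 genes they were -0.16 and -0.20 for Atp6v0e2 and -0.055 and -0.13 for Lipa. On T cell identity genes they were 0.44 (Atp6v0a4), 1.25 (Atp6v0d2), 0.92 (Atp6v1g2), 0.91 (Mfsd8), 0.45 (Rragb) and 0.82 (Sgsh). These shifts with scaling follow from the scale factors, which move all genes of a library together. Without single libraries Atp6v0d2 ranged from -0.17 to 0.013, the latter without tumor replicate 3.

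Replicate numbers 2 and 3 occur in both tissues but are not stated to pair samples, and the deviations of same-numbered libraries correlated across genes at 0.20 and 0.07, while spleen replicate 1 and tumor replicate 3, which share no number, gave 0.19. With 2 tumor libraries their deviations mirror each other, so these values do not show pairing. With the replicate block 4877 genes were higher and 2013 lower, Glb1 lost its call (limma adjusted p = 0.117) and Atp6v0e2 gained one (log2 change 0.53, adjusted p = 0.0248). The block takes spleen replicate 1 out of the contrast and leaves 1 residual degree of freedom. Without that library and with no block, the log2 changes were the same and the adjusted p was 0.116 for Glb1 and 0.0553 for Atp6v0e2. With 2 tumor libraries, and depth unknown, changes among genes under the background level are the least certain.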
